A study of Mus musculus with 4 samples.

Results

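The motile cilium genes described here are Foxj1 and every gene whose symbol begins with Dnah and a digit, Dnai, Rsph or Cfap and a digit, together with Ccdc39 and Ccdc40, which gave 62 of the 32289 genes in the 4 count matrices. Membership rested on the symbols and on no measured value. The libraries were single-cell transcriptomes of inner ear organoids grown from Atoh1-nGFP-ESC, 1 mouse embryonic stem cell line that carries a GFP reporter named for Atoh1, the transcription factor that specifies hair cells. Organoids were taken at day 16, at day 20 and at day 21, dissociated and sorted on GFP, and the day 21 cells were kept as a GFP high and a GFP low library. The sort gate used at days 16 and 20 is not given in the labels, and the labels speak of cells in the protocol and of nuclei in the description. Each group is 1 library, so there is no replicate, cells of a library are not replicates, and no test across samples was possible: every ratio below has an exact 95% interval that covers counting error only.

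Motile cilia are built on an axoneme of doublet microtubules, along which rows of outer and inner dynein arms slide the doublets, while radial spokes and a central apparatus set the beat. Foxj1 is the forkhead transcription factor that switches on motile cilium genes, in many tissues together with factors of the RFX family. In the inner ear the hair cell carries a single true cilium, the kinocilium, beside its bundle of stereocilia. The kinocilium guides the polarity of the bundle and has a microtubule axoneme, and how far it resembles a motile cilium is the question behind these genes. The levels below are RNA counts of dissociated cells. Neither protein nor the kinocilium itself was measured, so they do not show what the kinocilium contains.

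Filtering kept 3376 cells of the day 16 library, 4348 of day 20, 3435 of GFP high and 3686 of GFP low, and the 4 libraries held between 42334220 and 107390425 unique molecular identifiers (UMIs) in kept cells, with median UMIs per cell of 15255.5, 8844.5, 28877 and 22185 in that order. Pairs of libraries shared between 1 and 7 cell barcodes. Cells were clustered without the 62 genes and without the motile cilium lists used below (multiciliogenesis, dynein arm assembly, nexin link, central apparatus, and spoke and lumen partners). Genes of the other lists used below (RFX factors, intraflagellar transport, kinocilium and hair bundle polarity) could enter the clustering. In the outcome 4 clusters were named hair-cell-like from a hair cell marker list, with 24 to 29 of 29 measured genes raised 4-fold or more over the median cluster. All 30 genes of the list were detected in them in every library, with a summed level of 9765 to 13541 UMIs per 1000000 UMIs of the group (CPM), against 669 to 1068 CPM in the cells outside them. The list gave the name, so its level is no separate support for it. The hair-cell-like share was 5.72% at day 16 (193 cells), 3.43% at day 20 (149 cells), 65.4% in GFP high (2245 cells) and 22.4% in GFP low (824 cells). A cluster of 152 cells that carried hair cell and supporting cell markers together, 145 of them from GFP high and with 1.79 times the median UMIs of its libraries, was set aside from both classes.

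The hair-cell-like cells held the 62 genes at a higher summed level than the other cells in each of the 4 libraries. Their UMIs summed to 3067 CPM at day 16 (95% interval 3024 to 3111), 3765 CPM at day 20 (3690.2 to 3841), 4469.8 CPM in GFP high (4454 to 4486) and 4228.5 CPM in GFP low (4200.4 to 4257). All cells outside them held 397, 384, 571 and 467 CPM in the same libraries. The lowest hair-cell-like library therefore lay above the highest level in other cells, and the 4 pairs of values did not overlap.

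**Figure D1:**
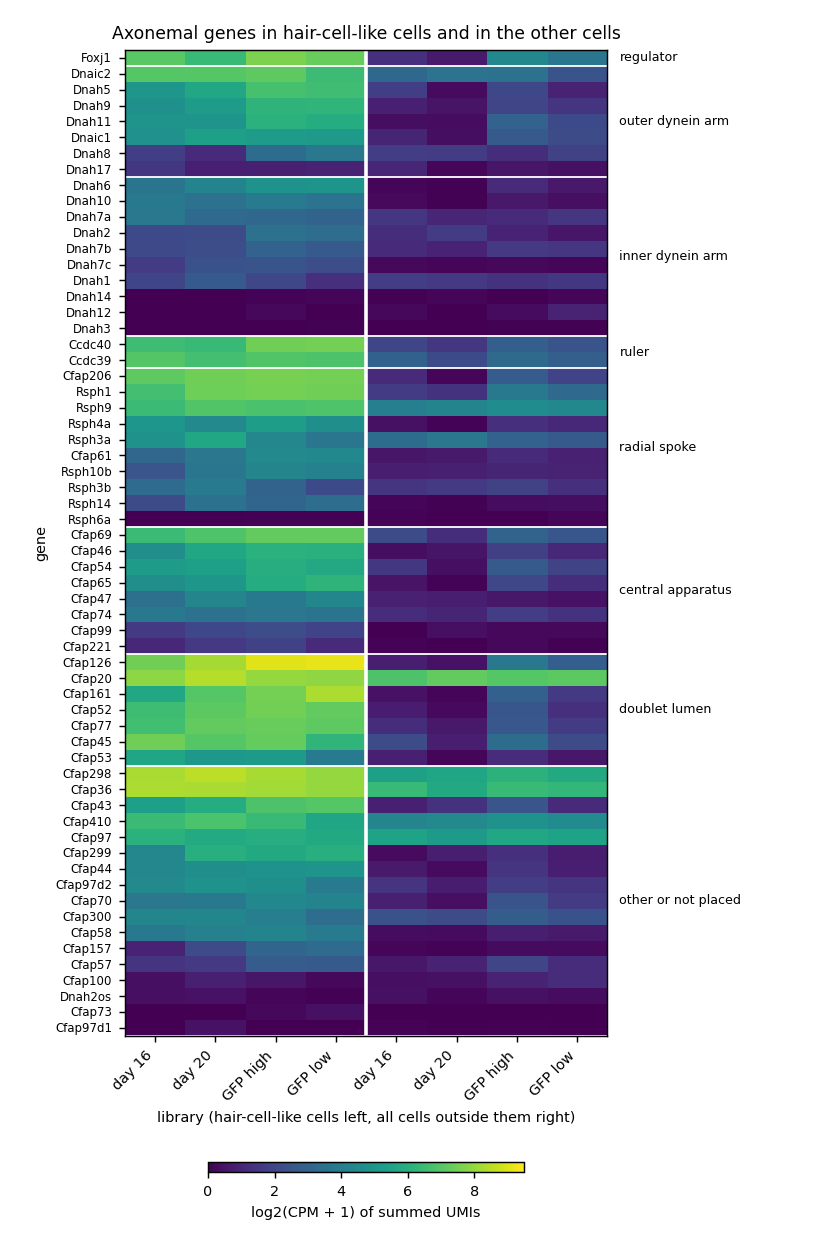
Level of each of the 62 genes, as log2(CPM + 1) of summed UMIs, in hair-cell-like cells of the 4 libraries (left block) and in all cells outside them (right block), with genes grouped by role; rows are to be read from left to right, since UMI levels of different genes are not corrected for length. In most rows the left block is brighter than the right, while Cfap20, Cfap36, Cfap97, Cfap298, Cfap410 and Rsph9 are bright in both and 9 rows such as Dnah3 and Rsph6a are dark in both.

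The 2 groups of a comparison were taken to differ in a gene where their CPM values were 2-fold or more apart with an interval that excluded 1, and a gene was measurable where at least 1 of them reached 10 CPM. By this rule of size, 39 of 40 measurable members were called higher in hair-cell-like cells than in the other cells at day 16, where 15.3% of all genes were; the counts were 42 of 43 at day 20 (20.1% of all genes), 41 of 42 in GFP high (16.6%) and 39 of 41 in GFP low (16.3%). Most members reached 10 CPM only in hair-cell-like cells and so had to differ to be counted. Among the members at 10 CPM or more in both groups, 5 of 6, 7 of 8, 9 of 10 and 5 of 7 were called higher in the 4 libraries. With no minimum level, 50 of 61 members with a UMI were called higher at day 16, 49 of 59 at day 20, 50 of 62 in GFP high and 52 of 61 in GFP low, where 11.5%, 14.4%, 12.8% and 12.4% of all genes were. Of the 38 members measurable in all 4 libraries, 36 were higher in all 4 (94.7%), compared with 890 of the 9144 genes measurable in all 4 (9.73%). The exceptions were Cfap97, called in no library, and Cfap20, called in 3. The cells were assigned to clusters by other genes of the same cells, so these counts describe where the module lies and are not an independent test of it.

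Foxj1 (chromosome 11, 116330704 to 116335399, minus strand, in the GENCODE M21 annotation of GRCm38) stood at 134, 85.8, 198 and 156 CPM in hair-cell-like cells at day 16, day 20, GFP high and GFP low, against 1.45, 0.603, 20.5 and 12.2 CPM in all other cells. The ratios were 92.7, 142, 9.67 and 12.8. Foxj1 was thus far above the other cells in every library, and the other cells of the day 21 libraries held more of it than those of days 16 and 20.

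Among the outer dynein arm genes, Dnah5, the heavy chain whose loss is a common cause of primary ciliary dyskinesia in humans, had 32.0, 49.7, 105 and 94.0 CPM in hair-cell-like cells of day 16, day 20, GFP high and GFP low, against 2.38, 0.226, 3.20 and 0.949 CPM in other cells. The heavy chains Dnah9 (26.3 to 72.4 CPM over the 4 libraries) and Dnah11 (29.2 to 65.5 CPM) and the intermediate chain Dnaic1 (27.3 to 39.9 CPM) lay at 0.251 to 6.93 CPM in other cells. The other intermediate chain, Dnaic2, stood at 128, 125, 142 and 89.8 CPM in hair-cell-like cells and at 8.33, 11.2, 10.6 and 4.57 CPM elsewhere. These 5 genes were called higher in all 4 libraries. The heavy chains Dnah8 and Dnah17, known mainly from sperm tails, differed from them. Dnah8 reached 9.31 CPM in GFP high and 12.9 CPM in GFP low but 2.36 CPM at day 16 and 1.17 CPM at day 20, the last beside 2.11 CPM in other cells, and Dnah17 stayed at or below 1.89 CPM in hair-cell-like cells of every library. In GFP low, Dnah8 was higher still in 87 pluripotent-like cells, at 19.8 CPM, while all cells outside hair-cell-like ones held 2.71 CPM.

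Inner arm heavy chains were fewer. Dnah6 stood at 11.5, 18.4, 27.5 and 29.2 CPM and Dnah10 at 13.2, 10.96, 13.7 and 11.4 CPM in hair-cell-like cells, against at most 1.25 and 0.561 CPM in other cells, and both were called in all 4 libraries. Dnah2 was measurable in GFP high alone (10.8 CPM in hair-cell-like cells, 0.858 CPM in other cells), and its antisense gene Dnah2os, which overlaps it, held 67 UMIs in all. Dnah7a, Dnah7b and Dnah7c are near-identical neighbours between which reads may be split or lost, and they gave 2.21 to 12.9 CPM in hair-cell-like cells. Dnah1 gave 1.51 to 5.48 CPM there. Dnah3, Dnah12 and Dnah14 held 5, 89 and 20 UMIs over all cells of the 4 libraries, so the inner arm set was detected only in part. The molecular rulers Ccdc39 and Ccdc40, which set the repeat along the doublet at which inner arms and the nexin link attach, were both called in all 4 libraries: Ccdc39 had 124, 101, 121 and 114 CPM in hair-cell-like cells, against 6.66, 3.44, 8.71 and 6.39 CPM in other cells, and Ccdc40 had 92.9, 82.6, 171 and 179.98 CPM, against 2.99, 1.81, 6.27 and 4.54 CPM.

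The radial spoke set held Cfap206, a protein of the spoke base, at 142, 172, 188 and 180.4 CPM in hair-cell-like cells, against 1.25, 0.126, 5.77 and 2.78 CPM in other cells. Rsph1, of the spoke head, stood at 100.1, 168, 181 and 174 CPM, against 2.21, 1.61, 13.2 and 8.45 CPM. Rsph4a, also of the spoke head, stood at 30.7, 21.1, 38.5 and 25.5 CPM, against 1.42 CPM or less. The spoke head was thus represented in every library. Rsph9 had 87.3 to 119.8 CPM in hair-cell-like cells but also 16.0 to 23.4 CPM elsewhere. The near-identical pair Rsph3a and Rsph3b gave 12.4 to 49.7 CPM and 3.36 to 13.7 CPM in hair-cell-like cells, with assignment between them uncertain. Rsph6a, the testis relative of Rsph4a, held 15 UMIs in all. Cfap61, Rsph10b and Rsph14 were low (3.47 to 21.3 CPM), and each was called higher wherever it was measurable.

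Of the 8 central apparatus genes, 6 were called in all 4 libraries: Cfap46, Cfap47, Cfap54, Cfap65, Cfap69 and Cfap74. Cfap69 stood at 88.1, 116, 149 and 147 CPM in hair-cell-like cells, against 3.48, 1.38, 7.16 and 4.76 CPM in other cells. Cfap99 and Cfap221 stayed below 10 CPM throughout (1.10 to 3.80 CPM in hair-cell-like cells). Proteins of the doublet lumen, which line the inside of the microtubules, were called in all 4 libraries for 6 of 7 genes: Cfap45, Cfap52, Cfap53, Cfap77, Cfap126 and Cfap161. Cfap126 (Flattop), which in mouse helps to place basal bodies, had 172, 296, 541 and 586 CPM in hair-cell-like cells, against 0.743, 0.377, 13.1 and 6.18 CPM in other cells. Cfap161 had 49.3, 126, 182 and 319 CPM, against 0.371, 0.101, 6.53 and 2.02 CPM. Cfap20, which also serves in cells without motile cilia, was the exception in this set, with 234, 348, 256 and 242 CPM in hair-cell-like cells and 116, 146, 126 and 136 CPM elsewhere.

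Among the remaining genes, Cfap298, which acts in dynein arm assembly, had 314, 379, 303 and 254 CPM in hair-cell-like cells and 41.6, 48.2, 67.4 and 53.4 CPM in other cells. Cfap43 and Cfap44, which tether an inner arm dynein, had 39.7 to 126 CPM and 20.2 to 29.4 CPM in hair-cell-like cells, with at most 4.69 CPM elsewhere. Cfap97 was not called in any library, with 66.1, 55.2, 58.9 and 52.9 CPM in hair-cell-like cells beside 44.9, 35.4, 49.2 and 44.0 CPM in other cells. Cfap36 and Cfap410 were present in all classes of cells (54.2 to 83.6 CPM and 19.1 to 28.1 CPM outside hair-cell-like cells) and were still called higher in hair-cell-like cells of all 4 libraries. Cfap58, Cfap70, Cfap97d2 and Cfap299 were likewise called in all 4, and Cfap300 in the 3 libraries in which it was measurable. Cfap57 and Cfap157 stayed below 10 CPM in the hair-cell-like cells and in the other cells of each library taken as a whole. Cfap57 still reached 22.6 CPM in epidermis-like cells of GFP high, and 11.3 and 22.5 CPM at day 16 and day 20 in a cluster with Cnmd, described below. In single hair-cell-like clusters of GFP high Cfap57 reached 10.7 CPM and Cfap157 11.9 CPM. Cfap73, Cfap97d1 and Cfap100 held 17, 5 and 197 UMIs in all, and Cfap100 and Dnah12 were the members lower in hair-cell-like cells of GFP low when no minimum level was set (3 UMIs against 94 in other cells, and 0 against 65; 26.2% of all genes were lower there). In GFP low, Dnah12 stood at 8.31 CPM in pluripotent-like cells, beside 0.894 CPM in all cells outside hair-cell-like ones.

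Because so many members were high in the same cells, their RefSeq promoters (250 bases before to 50 after each start, GRCm38.p6) were searched on both strands for GTTGCC, the half-site bound by RFX factors. Of the 62 genes, 49 matched an entry, with 53 promoters. The half-site stood in 17 of these 53 promoters (32.1%), from 16 genes, and in 4111 of all 32851 promoters of this length (12.5%). Those genes included the near-identical Dnah7a, Dnah7b and Dnah7c, and also Cfap100, which was not called higher in any library. The paired RFX site, which is GTTNCC, any 2 bases and GGNAAC and so overlaps the half-site on both strands, stood in 1 of 53 (1.89%), that of Cfap298, and in 0.451% of all promoters. The forkhead core TGTTTAC stood in 3 of 53 (5.66%; Cfap20, Cfap43 and Dnah17) and in 3.65% of all. A match describes letters only. The promoters of Cfap126, Dnah5 and Cfap206, all called higher in hair-cell-like cells of every library, held no half-site. Below, capitals mark each half-site on either strand in 3 promoters taken from those that held it: 2 face-to-face pairs in Cfap298 (chr16:90934800-90935099, minus strand), 3 sites on 1 strand in Cfap161 (chr7:83794790-83795089, minus strand) and 1 site in Dnaic2 (chr11:114727169-114727468, plus strand).
Cfap298: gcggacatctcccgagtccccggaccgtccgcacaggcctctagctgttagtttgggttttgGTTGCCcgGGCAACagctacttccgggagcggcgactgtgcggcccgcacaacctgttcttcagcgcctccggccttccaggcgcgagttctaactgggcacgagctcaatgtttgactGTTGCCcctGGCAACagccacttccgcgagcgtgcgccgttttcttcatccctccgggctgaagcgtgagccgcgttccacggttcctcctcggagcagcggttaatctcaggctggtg
Cfap161: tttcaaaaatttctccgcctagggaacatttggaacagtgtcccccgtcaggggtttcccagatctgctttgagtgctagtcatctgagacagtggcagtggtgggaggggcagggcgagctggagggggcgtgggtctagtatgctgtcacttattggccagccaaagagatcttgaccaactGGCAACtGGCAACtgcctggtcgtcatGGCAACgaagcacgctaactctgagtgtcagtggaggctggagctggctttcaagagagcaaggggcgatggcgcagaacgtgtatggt
Dnaic2: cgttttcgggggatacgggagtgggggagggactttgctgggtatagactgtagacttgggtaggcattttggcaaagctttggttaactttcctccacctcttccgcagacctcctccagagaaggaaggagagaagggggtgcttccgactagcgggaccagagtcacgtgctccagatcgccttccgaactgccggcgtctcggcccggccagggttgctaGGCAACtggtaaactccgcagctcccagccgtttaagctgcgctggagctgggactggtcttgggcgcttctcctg

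The genes of the rest of the pathway, taken from lists that the members do not overlap, lay in the same cells. For dynein arm assembly and docking, 20 of 20, 20 of 20, 20 of 20 and 19 of 19 measurable genes were called higher in hair-cell-like cells at day 16, day 20, GFP high and GFP low. For the nexin-dynein regulatory complex, which links neighbouring doublets, the counts were 8 of 8, 9 of 9, 9 of 9 and 9 of 9, and for further central apparatus genes 7 of 7, 9 of 9, 9 of 9 and 9 of 9. Partners of the radial spokes and of the doublet lumen gave 14 of 14, 17 of 17, 16 of 16 and 15 of 15. Intraflagellar transport and primary cilium genes, which cells with an immotile cilium also use, gave 20 of 30, 23 of 29, 24 of 31 and 23 of 30. Beside the counts of these lists, 15.3%, 20.1%, 16.6% and 16.3% of all measurable genes were higher in the 4 libraries. Most genes of the first 4 of these lists were measurable through hair-cell-like cells alone, so that they had to differ. At 10 CPM or more in both groups there were 3, 3, 5 and 4 dynein arm assembly genes, 1, 1, 3 and 1 nexin link genes and 2, 2, 9 and 4 spoke and lumen partners, each of them higher, and no central apparatus gene. Of the intraflagellar transport genes at that level in both, 15 of 23, 15 of 20, 18 of 25 and 18 of 25 were higher. With no minimum level, 20 of 20, 20 of 20, 20 of 21 and 20 of 21 dynein arm assembly genes with a UMI were higher, 10 of 10 nexin link genes in each library and 10 of 12 central apparatus genes in each, where 11.5%, 14.4%, 12.8% and 12.4% of all genes were. In GFP low the other 2 central apparatus genes were lower, where 26.2% of all genes were.

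In hair-cell-like cells of GFP high, Armc4, a docking factor of the outer arm, had 171 CPM against 4.85 CPM in other cells (ratio 35.3). Drc1, of the nexin link, had 198 CPM against 8.12 CPM, and Hydin, of the central apparatus, had 150.4 CPM against 4.55 CPM. Each was also called in the other 3 libraries. Kncn, which encodes kinocilin, a protein of the kinocilium, had 44.1, 104, 151 and 144 CPM in hair-cell-like cells, against 0.0977, 0.0503, 3.498 and 0.812 CPM in other cells. Rfx3, an RFX factor of ciliated cells, had 59.3, 32.9, 75.2 and 70.6 CPM, against 22.9, 10.5, 22.6 and 25.3 CPM.

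The genes that drive the making of many cilia per cell did not follow this pattern. Of 13 listed regulators and deuterosome genes, 4 were measurable in each library and 1, Cep152, was called higher (86.5 CPM in hair-cell-like cells of GFP high, against 17.4 CPM in other cells), while Plk4 was lower in GFP low (6.63 CPM, against 16.4 CPM). Of all measurable genes 15.3%, 20.1%, 16.6% and 16.3% were higher in the 4 libraries, and 22.8% were lower in GFP low. Over all hair-cell-like cells, Mcidas held 5 UMIs, Gmnc 6, Deup1 7 and Cdc20b 0. Sntn, a tip protein of multiciliated cells, held 0 UMIs in hair-cell-like and in other cells. With no minimum level, 2 of 13, 3 of 12, 3 of 13 and 4 of 13 listed genes with a UMI were higher in the 4 libraries, and 2, 0, 4 and 5 were lower. Of all genes 11.5%, 14.4%, 12.8% and 12.4% were higher and 17.3%, 16.7%, 24.6% and 26.2% lower. The hair-cell-like cells thus held the axonemal genes above with Mcidas, Gmnc, Deup1, Cdc20b and Sntn near 0, while Ccno, given below, was higher than these. Spag17, of the central apparatus, held 11 UMIs in hair-cell-like cells.

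At the level of single cells, thinned to 3000 UMIs each, 33.3% of hair-cell-like cells at day 16 had a Foxj1 UMI (63 of 189; exact 95% interval 26.7 to 40.5), 18.6% at day 20 (27 of 145; 12.6 to 25.9), 43.0% in GFP high (960 of 2232; 40.9 to 45.1) and 34.0% in GFP low (275 of 809; 30.7 to 37.4). In mesenchyme-like cells, which should lack the gene, the shares were 0 of 803 (which, by a limit of 3 cells in the total, allows up to 0.374%), 0.056% (1 of 1786), 0 of 48 (up to 6.25%) and 0.855% (1 of 117). Median UMIs before thinning were 32530, 17151, 29880 and 25227.5 in hair-cell-like cells and 12569, 8449, 22103 and 20767.5 in mesenchyme-like cells, and cells under 3000 UMIs were left out (4, 4, 13 and 15 hair-cell-like and 144, 259, 1 and 1 mesenchyme-like). The share in hair-cell-like cells lay above that of mesenchyme-like cells in all 4 libraries. Hair-cell-like cells with a Foxj1 UMI held on average 9.40, 12.4, 13.6 and 13.2 UMIs of the other 61 members, against 7.80, 10.2, 12.6 and 12.002 UMIs in hair-cell-like cells without one, ratios of 1.20, 1.22, 1.08 and 1.10. Cells in which Foxj1 was not seen at this depth thus carried the other members too. At least 5 UMIs of these genes were found in 90.5% of 3375 hair-cell-like cells and in 1.63% of 10305 cells outside them.

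**Figure D2:**
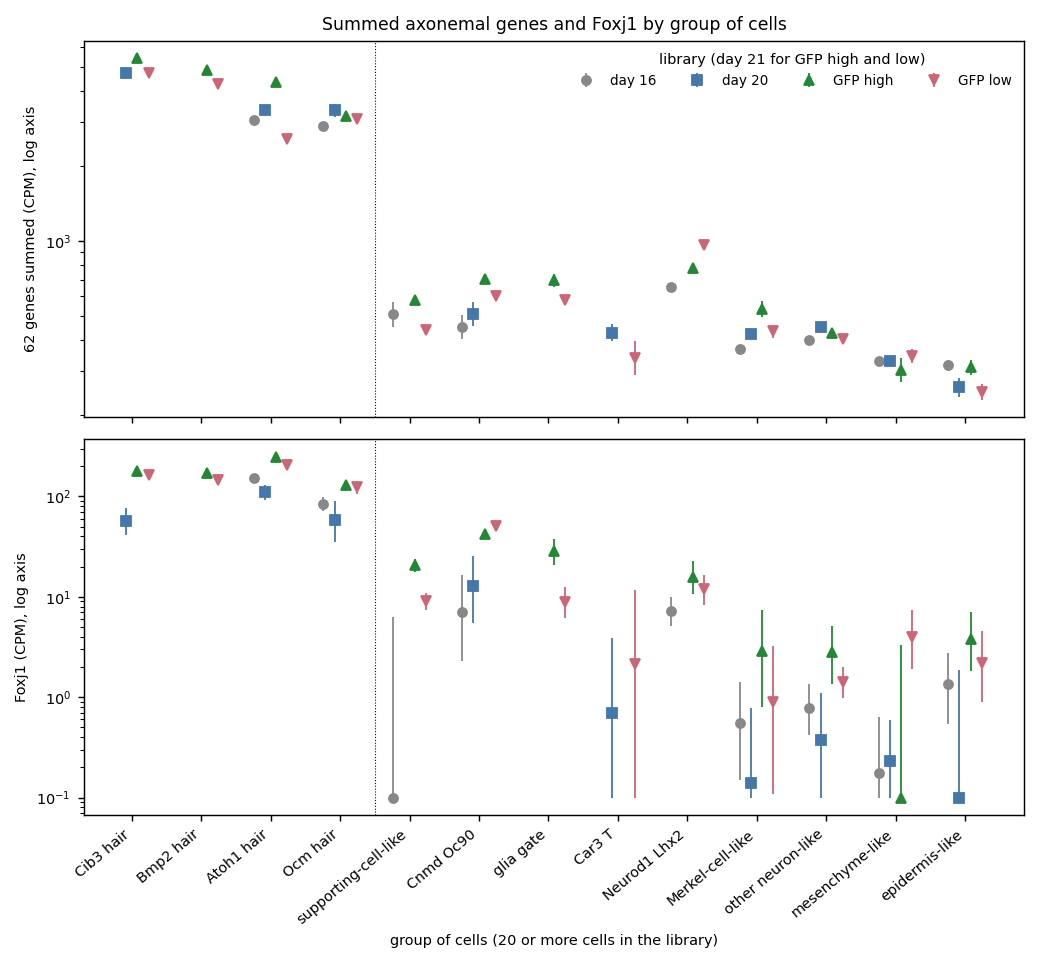
Summed level of the 62 genes (top) and level of Foxj1 (bottom), both in CPM on log axes, in the 4 hair-cell-like clusters (left of the dotted line) and in other groups of cells, by library, with exact Poisson 95% intervals and values of 0 drawn at 0.1. The hair-cell-like clusters sit between 2559 and 5417 CPM in the top panel and the other groups between 247 and 968 CPM.

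Supporting cells are the other cell type of the sensory epithelium and carry a primary cilium. In supporting-cell-like cells the 62 genes summed to 508, 581 and 438 CPM at day 16, GFP high and GFP low. Of the measurable members, 41 of 42 were called lower in supporting-cell-like than in hair-cell-like cells of GFP high, where 18.7% of all genes were, and 39 of 41 in GFP low, where 19.7% were. Among members at 10 CPM or more in both classes, 9 of 10 and 5 of 7 were lower. With no minimum level 50 of 61 and 48 of 60 were lower (14.3% and 15.6% of all genes), and the 1 called higher was Dnah2os, in GFP low. Foxj1 stood at 20.7 CPM in supporting-cell-like cells of GFP high and 9.04 CPM in those of GFP low, against 198 and 156 CPM in hair-cell-like cells. At day 16 none of its UMIs fell in 30 supporting-cell-like cells, where 3 UMIs would be 5.16 CPM. Beside these values, the hair cell marker list summed to 621, 1265 and 1149 CPM in supporting-cell-like cells at day 16, GFP high and GFP low, against 9765, 13541 and 10948 CPM in hair-cell-like cells, and what part of the members' UMIs came with hair cell RNA was not tested.

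A cluster led by Mia, Oc90 and Cnmd, which the marker lists left unnamed, held more Foxj1 than the supporting-cell-like cells. Mia and Oc90 were also among the leading genes of the supporting-cell-like cluster, while Cnmd was not. Foxj1 stood there at 7.07, 12.8, 41.9 and 50.3 CPM at day 16, day 20, GFP high and GFP low. Foxj1 was not alone in this: Dnah11 had 15.5 CPM in the Cnmd cells of GFP high and 12.98 CPM in those of GFP low, against 6.62 and 4.87 CPM in supporting-cell-like cells, and Cfap410 had 43.9 and 43.4 CPM, against 24.9 and 18.5 CPM. Cfap126 had 1.41, 0, 19.8 and 8.04 CPM in the Cnmd cluster of the 4 libraries and Cfap206 had 0, 0, 5.99 and 1.99 CPM. At 3000 UMIs per cell 9.31% of the Cnmd cells of GFP high and 6.53% of those of GFP low had a Foxj1 UMI. The hair cell marker list summed to 754 CPM in those of GFP high and 386 CPM in those of GFP low, beside 1265 and 1149 CPM in supporting-cell-like cells. What part of the Foxj1 UMIs of the Cnmd cells came with hair cell RNA was not tested. The whole module summed to 451, 511, 702 and 602 CPM in this cluster.

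A neuron-like cluster with Neurod1 and Lhx2 among its leading genes had the highest sum outside the hair-cell-like and mixed clusters, with 654, 777 and 968 CPM at day 16, GFP high and GFP low. In this cluster Rsph9 stood at 35.2, 53.0 and 84.7 CPM, Rsph1 at 12.4, 26.7 and 33.5 CPM and Ccdc39 at 17.1, 24.6 and 19.5 CPM, with Foxj1 at 7.23, 15.8 and 11.9 CPM. Over the libraries this cluster also held Gmnc at 9.68 CPM, Ccno at 10.7 CPM and Mcidas at 2.64 CPM, whereas hair-cell-like cells held them at 0.061, 3.67 and 0.051 CPM. At 3000 UMIs 9.18% of its cells had 5 or more member UMIs.

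Outside the hair-cell-like cells and the mixed cluster, only Merkel-cell-like cells, named for the Atoh1-positive touch cells of the skin, held Dnaic2 above 20 CPM. It stood at 47.8, 59.7, 131 and 96.0 CPM in them, and in GFP high and GFP low these levels were near the 142 and 89.8 CPM of hair-cell-like cells, while at day 16 and day 20 they were below the 128 and 125 CPM there. Cfap126, by contrast, had 0.275, 0.279, 2.18 and 4.06 CPM and Foxj1 0.551, 0.140, 2.90 and 0.901 CPM there. The 4 Dnaic2 values rest on 347, 428, 181 and 213 UMIs. At day 21 Dnaic2 was thus near its hair-cell-like level in these cells, while Cfap126 and Foxj1 were far below theirs in all 4 libraries. The Merkel-cell-like sum of all 62 genes was 367, 423, 532 and 433 CPM.

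Glia-like cells formed no cluster of their own and were taken by a gate on 3 of 5 glial genes, which left 39 cells in GFP high and 101 in GFP low with the module at 696 and 580.2 CPM. Foxj1 stood at 28.4 and 8.93 CPM and Cfap126 at 28.4 and 10.05 CPM in them, beside a hair cell marker sum of 1618 and 993 CPM, and the part of hair cell RNA in these levels was not tested. The cluster with Car3 and T, the Brachyury gene of notochord, had 173 cells at day 20 and 27 in GFP low. Its module sum was 428 and 339 CPM and Foxj1 stood at 0.702 and 2.12 CPM in the same libraries. Cfap126 and Cfap206 held 0 UMIs in both, where 3 UMIs would be 2.11 CPM at day 20 and 6.35 CPM in GFP low. Cfap299, at 13.3 CPM from 19 UMIs at day 20, lay above its level in all cells outside hair-cell-like ones of that day (0.729 CPM). Shh and Foxa2, further notochord genes, were at 129 and 13.9 CPM over the libraries and Noto, which controls Foxj1 in the mouse node, at 0 UMIs. In mesenchyme-like cells the module summed to 329.5, 328, 304 and 344 CPM and in epidermis-like cells to 317, 258, 312 and 247 CPM, with the widely expressed Cfap20, Cfap36, Cfap97 and Cfap298 among the members detected.

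The GFP high library held far more of the module than GFP low when all kept cells were summed, 3256 against 1298 CPM. Of 38 measurable members, 33 were called higher and none lower, where 6.91% of all genes were higher and 7.7% lower. Among the 27 at 10 CPM or more in both libraries 22 were higher, and with no minimum level 46 of 62 were, against 6.63% of all genes, with 1 lower, Dnah12. Cfap53 had 24.9 CPM in GFP high against 3.53 CPM in GFP low (ratio 7.04, 95% interval 6.28 to 7.92), Cfap45 had 108 against 19.2 CPM (5.63, 5.36 to 5.92) and Foxj1 had 145 against 44.2 CPM (3.29, 3.18 to 3.40). Not called were Cfap20, Cfap36, Cfap97, Cfap161 and Rsph9. The median log2 ratio of the 38 was 1.46, beside -0.04 for all genes. Beside this difference the hair-cell-like share of cells was 65.4% in GFP high and 22.4% in GFP low.

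Within hair-cell-like cells the same 2 libraries differed little. Of 43 measurable members 2 were called higher in GFP high and none lower, close to the 3.57% of all genes that were higher and the 1.67% that were lower. These were Cfap53, at 34.8 CPM in GFP high and 14.1 CPM in GFP low (ratio 2.46, 95% interval 2.18 to 2.79), and Cfap45, at 150.3 and 73.8 CPM (2.04, 1.93 to 2.15). Foxj1 had 198 and 156 CPM (1.27, 1.22 to 1.32), under the rule of size. Cfap161 leaned the other way, at 182 CPM in GFP high and 319 CPM in GFP low (ratio 0.57, 0.55 to 0.59). With no minimum level 6 of 61 were higher (5.07% of all genes) and none lower (3.26%). The median log2 ratio of the 43 was 0.15, beside 0.01 for all genes. The 2 libraries held the hair-cell-like clusters in different proportions, 820, 118, 887 and 420 cells of the Cib3, Bmp2, Atoh1 and Ocm clusters in GFP high, against 344, 346, 85 and 49 in GFP low. In the lists of other cilium genes, 1 of 16 spoke and lumen partners, 1 of 6 kinocilium genes and 1 of 7 bundle polarity genes were higher in GFP high. These calls included Morn5 and Insc, and the other lists had none. No listed gene was called lower, and of all genes 3.57% were higher and 1.67% lower.

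**Figure D3:**
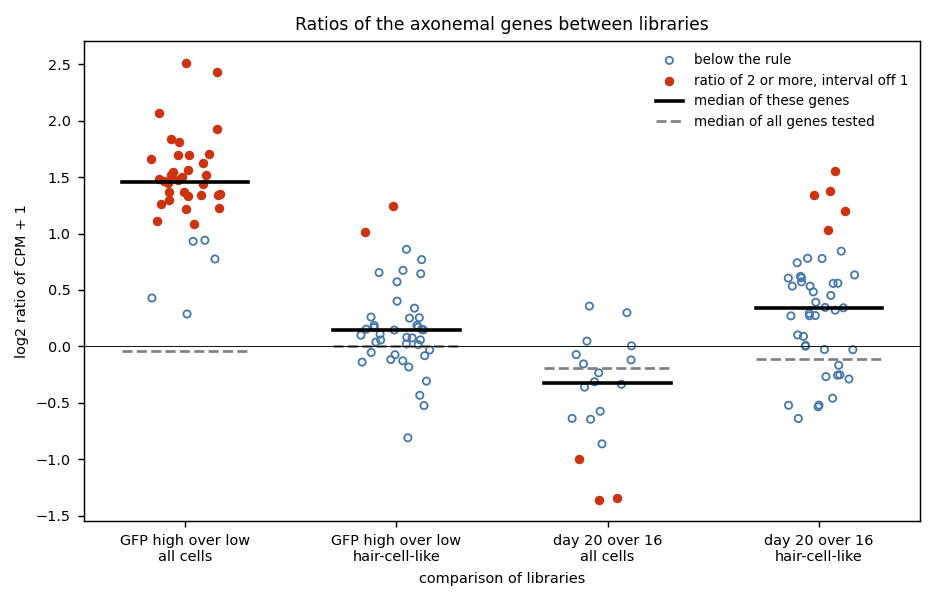
Log2 ratio of CPM + 1 of each measurable member in 4 comparisons of libraries, with filled points for a ratio of 2 or more whose interval excludes 1, a solid bar at the median of the members and a dashed bar at the median of all genes tested. The members' median is 1.46 for GFP high over GFP low in all cells and 0.15 in hair-cell-like cells, and for day 20 over day 16 it is -0.32 in all cells and 0.34 in hair-cell-like cells, which turn to 0.10 with the mean of per-cell CPM and to -0.06 with cells taken by hair cell markers.

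Between the 2 earlier times the gate and the mix of cells cannot be told apart from the day. Over all kept cells the module stood at 588 CPM at day 20, against 694 CPM at day 16. None of 18 measurable members was called higher and 3 were called lower, where 5% of all genes were higher and 6.85% lower. Foxj1 had 5.74 CPM at day 20 and 16.3 CPM at day 16 (ratio 0.35, 95% interval 0.31 to 0.41), Cfap45 had 8.34 and 22.7 CPM (0.37, 0.33 to 0.41) and Ccdc39 had 9.33 and 19.6 CPM (0.48, 0.42 to 0.53). None of the 11 members at 10 CPM or more in both was called, and with no minimum level 10 of 61 were lower, beside 10.1% of all genes. Hair-cell-like cells were 3.43% of cells at day 20 and 5.72% at day 16.

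Within hair-cell-like cells 5 of 44 measurable members were higher at day 20 and none lower, where 5.1% of all genes were higher and 10.2% lower, and 3 of the 39 at 10 CPM or more in both were higher. With no minimum level 6 of 57 were higher (4.85%) and none lower (7.96%). Cfap299 had 61.1 CPM at day 20 and 20.2 CPM at day 16 (ratio 3.03, 95% interval 2.38 to 3.86), Cfap161 had 126 and 49.3 CPM (2.56) and Cfap46 had 51.3 and 24.6 CPM (2.09). Rsph10b and Rsph14 were called on 31 and 27 UMIs at day 20, against 30 and 22 at day 16. Foxj1 itself leaned the other way, at 85.8 CPM at day 20 and 134 CPM at day 16 (0.64, 0.55 to 0.74), and was not called. The Cib3 cluster held 49 of 149 hair-cell-like cells at day 20 and 6 of 193 at day 16, the Atoh1 cluster 71 and 132, and median UMIs were 17151 and 32530.

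Other cilium genes moved at these times as well. Kncn had 104 CPM at day 20 and 44.1 CPM at day 16 (ratio 2.35, 95% interval 1.98 to 2.79), and Tekt4, a tektin, had 55.2 and 17.7 CPM (3.13). Pcdh15, of the tip link and kinocilial links, was lower, at 31.7 CPM at day 20 and 115 CPM at day 16 (0.28, 0.22 to 0.35), as was the planar polarity gene Vangl2, at 16.4 and 46.7 CPM (0.35). For the kinocilium and its links 1 of 6 genes was higher and 2 were lower, and for hair bundle polarity none of 7 was higher and 2 were lower. Partners of the radial spokes and of the doublet lumen gave 5 of 17 higher, dynein arm assembly 4 of 20, the nexin link 2 of 9 and further central apparatus genes 1 of 9, with none lower in these 4 lists. RFX factors and Foxj1 partners gave 1 higher and 1 lower of 5, multiciliogenesis regulators 1 lower of 4, and intraflagellar transport 0 of 30 in either direction. All genes stood at 5.1% higher and 10.2% lower.

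The 4 hair-cell-like clusters differed among themselves. Each is called by a gene whose CPM was highest in it among the 4: Cib3, a calcium-binding partner of the transduction channel, Bmp2, a secreted growth factor, Atoh1, and Ocm, which encodes the calcium buffer oncomodulin. Cib3 and Ocm were among the leading genes of their clusters, while Bmp2 and Atoh1 were not. The summed module in GFP high was 5417 CPM in the Cib3 cluster, 4865 in the Bmp2 cluster, 4339 in the Atoh1 cluster and 3177 in the Ocm cluster, and in GFP low 4720.5, 4294, 2559 and 3082 CPM. At day 20 the Cib3, Atoh1 and Ocm clusters had 4716, 3347 and 3355 CPM. The Cib3 cluster was the highest in all 3 libraries that held 20 or more of its cells. At 3000 UMIs, 97.7%, 96.6%, 84.2% and 82.7% of cells of the Cib3, Bmp2, Atoh1 and Ocm clusters held 5 or more member UMIs.

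**Figure D4:**
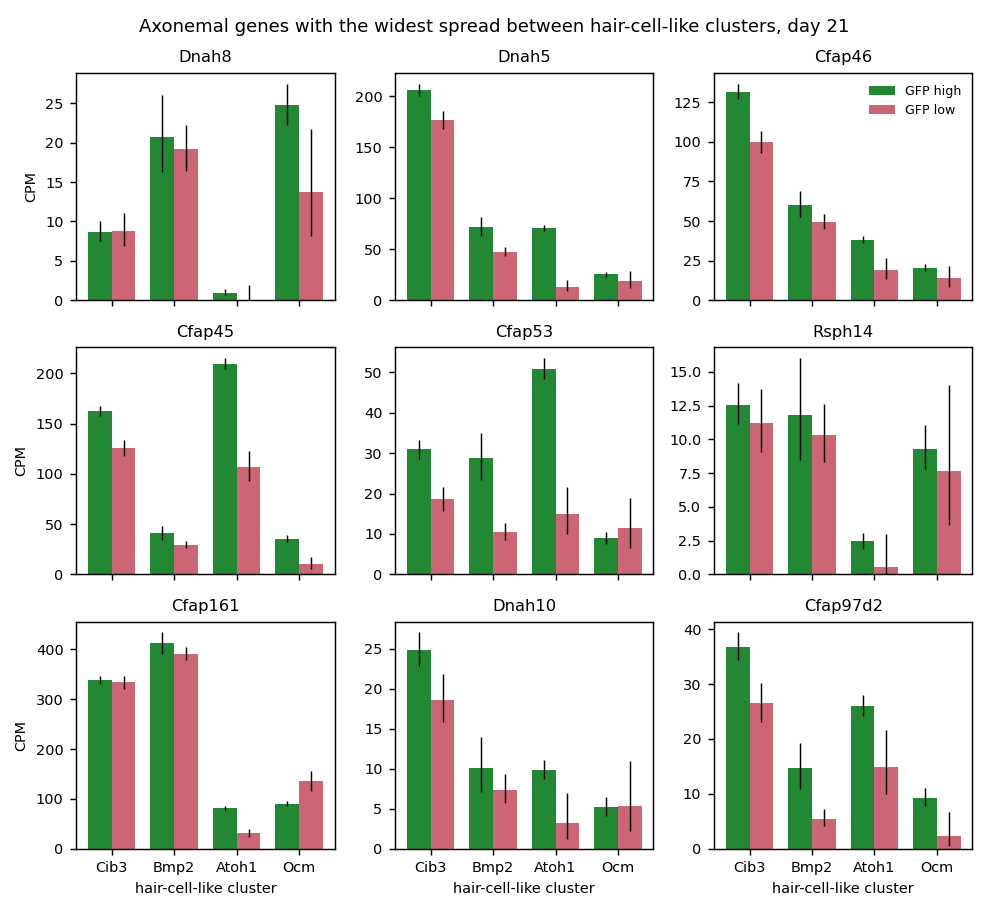
CPM of the 9 members with the widest ratio, among those at 10 CPM or more in some cluster, between their highest and lowest hair-cell-like cluster in GFP high, in the Cib3, Bmp2, Atoh1 and Ocm clusters of GFP high (left bar) and GFP low (right bar), with exact Poisson 95% intervals. Dnah5 and Cfap46 peak in the Cib3 cluster, Cfap45 and Cfap53 in the Atoh1 cluster of GFP high, and Dnah8 is near 0 in the Atoh1 cluster.

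Of 45 members at 10 CPM or more in some cluster of both day 21 libraries, 37 had their highest level in the same cluster in both: 21 in the Cib3 cluster, 11 in the Bmp2 cluster, 5 in the Atoh1 cluster and 0 in the Ocm cluster. For 17 of the 45 both the highest and the lowest cluster were the same. This ranking set no limit on size: in GFP low the highest over the lowest level of Cfap97 was 1.14 (95% interval 0.92 to 1.41). The share of all genes that peak in each cluster was not taken, so these counts do not show a trait of the module. Dnah5 had 206, 72.0, 70.8 and 25.3 CPM in the Cib3, Bmp2, Atoh1 and Ocm clusters of GFP high and 176, 47.4, 13.3 and 19.1 CPM in those of GFP low, and its highest over its lowest level in GFP high was 8.14 (95% interval 7.31 to 9.08). Cfap46 was highest in the same cluster and lowest in the Ocm cluster of both, at 132, 60.2, 38.1 and 20.6 CPM in GFP high and 100.002, 49.6, 19.2 and 13.8 CPM in GFP low. Dnah9, Dnah11, Dnah6 and Dnah10 were also highest in the Cib3 cluster of both libraries, so these dynein heavy chains shared that cluster as their peak.

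Dnah8 was the heavy chain with another order, at 8.69, 20.7, 0.951 and 24.7 CPM in GFP high and 8.78, 19.2, 0 and 13.8 CPM in GFP low. It was highest in the Ocm cluster of GFP high and in the Bmp2 cluster of GFP low, and lowest in the Atoh1 cluster of both. Cfap161 had 338, 412, 81.3 and 90.3 CPM in GFP high and 334, 391, 30.9 and 135 CPM in GFP low. Its peak was the Bmp2 cluster in both libraries, and that cluster held 346 of the 824 hair-cell-like cells of GFP low and 118 of the 2245 of GFP high. Foxj1 was highest in the Atoh1 cluster and lowest in the Ocm cluster of both libraries, at 178, 172, 248 and 129.6 CPM in GFP high and 163, 145, 205 and 123 CPM in GFP low. By summed CPM, Foxj1 thus peaked in another cluster than Dnah5, Dnah9, Dnah11, Dnah6 and Dnah10. At 3000 UMIs per cell, 51.4% of Atoh1 cluster cells and 41.0% of Cib3 cluster cells of GFP high had a Foxj1 UMI, but in GFP low the order was the other way, at 32.5% (26 of 80; exact 95% interval 22.4 to 43.9) and 37.3% (126 of 338; 32.1 to 42.7), with intervals that overlap. Cfap97 was nearly level, with 57.5, 52.4, 64.3 and 51.6 CPM in GFP high.

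Compared within each cluster, GFP high and GFP low were close in 3 of the 4. In the Cib3 cluster 0 of 45 members were called in either direction (0.438% of all genes were higher, 0.525% lower), and the summed module was 1.15 times that of GFP low (95% interval 1.13 to 1.16). In the Bmp2 cluster 2 of 45 were higher, Cfap53 and Cfap97d2 (1.4% of all genes were higher, 0.68% lower), and in the Ocm cluster 2 of 38, Cfap45 and Rsph4a (4.13% and 1.67%). In the Atoh1 cluster 15 of 39 members were higher in GFP high and none lower, where 4.68% of all genes were higher and 1.92% lower, and 11 of the 34 at 10 CPM or more in both libraries were. The summed module there was 4339 CPM in GFP high and 2559 CPM in GFP low, a ratio of 1.70 (1.65 to 1.75). Dnah5 had 70.8 and 13.3 CPM (ratio 5.31), Ccdc39 had 109 and 38.4 CPM (2.85), and Foxj1 had 248 and 205 CPM (1.21, 1.09 to 1.35), which was not called. Beside this, the Atoh1 cluster held 887 cells in GFP high and 85 in GFP low, with median UMIs of 32961 and 23795 and a summed hair cell marker list of 14591 and 11325 CPM, and the part of cell number, depth and stage of the cells in the difference was not tested.

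**Figure D5:**
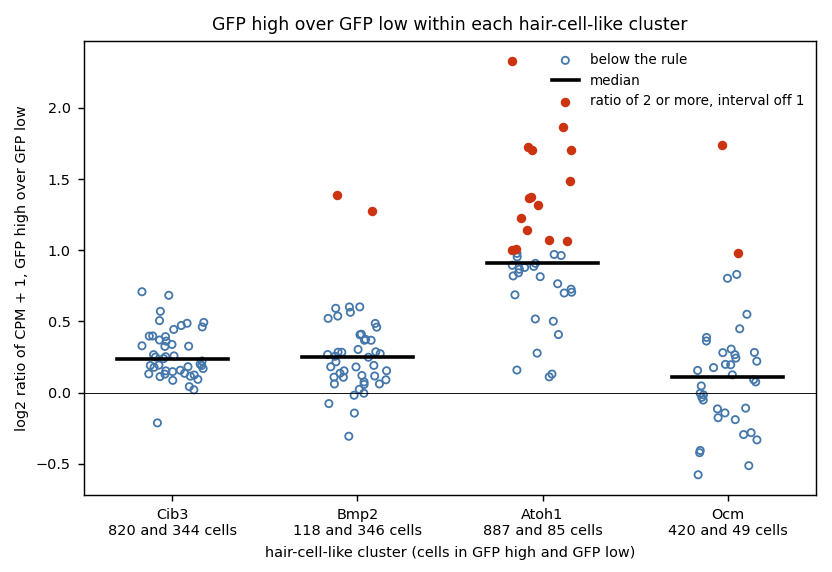
Log2 ratio of CPM + 1 of each measurable member, GFP high over GFP low, within each hair-cell-like cluster, with filled points for a ratio of 2 or more whose interval excludes 1 and a bar at the median. The Atoh1 cluster has 15 filled points and a median of 0.91, while the medians of the Cib3, Bmp2 and Ocm clusters are 0.24, 0.25 and 0.11.

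Day 20 was set against day 16 in the 2 clusters with enough cells. In the Atoh1 cluster 4 of 42 members were higher at day 20 (Rsph10b, Rsph3b, Rsph3a and Cfap47) and 2 lower (Dnah7a and Dnah10), where 4.44% of all genes were higher and 12.5% lower. In the Ocm cluster 3 of 41 were higher (Cfap299, Rsph14 and Dnah9) and 2 lower (Cfap45 and Cfap97d2), beside 4.1% and 8.47% of all genes, with 20 cells at day 20 and 55 at day 16. The summed module was 1.09 times (1.05 to 1.13) and 1.15 times (1.08 to 1.23) that of day 16 in these clusters.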

How the data were processed

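Raw UMI counts per gene and cell were used as the authors deposited them, as 10x matrices on mm10. Cell Ranger 6.1.0 and Seurat 4.0.6 are named in the submitters' processing notes, and the matrices give Cell Ranger 6.1.2 per the file headers. Cells with 1000 or more genes and at most 15% mitochondrial UMIs were kept, and the highest doublet scores were removed (0.8% per 1000 cells). Clustering (scanpy 1.11.5, leidenalg 0.10.2) used 2000 variable genes, 30 components, 20 neighbours and resolution 1, and 22 of 26 clusters were named from marker lists. The 62 genes and the motile cilium lists were left out of it, while the RFX, intraflagellar transport, kinocilium and bundle polarity lists were not. The naming rule, the mixed cluster and the names of the hair-cell-like clusters were set after the clusters were seen. The members and gene lists were chosen with earlier results of these data known. Levels are CPM of summed UMIs, ratios have exact conditional binomial intervals, and log2 ratios use CPM + 1. A call needed a ratio of 2 or more either way, an interval excluding 1 and 10 CPM in at least 1 of the groups, and levels were read in groups of 20 or more cells. Named genes were Foxj1, up to 12 called members a comparison and direction, the 10 highest in hair-cell-like cells and up to 4 genes a pathway list; other members were added to account for all 62. The rule was run on simulated data with counting error alone, in which 200 genes at 20 CPM or more were changed 3-fold. All 200 were called in each of 3 simulated comparisons, with 0, 0 and 10 unchanged genes called. The change lay above the ratio of 2 that a call needed, and no variation between cells or libraries was simulated. This run therefore checks the arithmetic of the rule and cannot stand in for replicates. TMM factors came from edgeR 4.0.16 (R 4.3.3). UMIs per library and cell depth are given with the results. Samples were grouped by the labels, 1 library a group.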

Additional observations from a re-analysis of the deposited data

How the results depend on the processing

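Under the alternatives tried no called member changed direction: 4678 member ratios had the same call as reported, and 186 lost it or were no longer measurable. Of the counts of members, 137 stayed within 1.5 times the value reported and 20 moved. Of the median log2 ratios, 123 stayed close and 34 moved, 2 of them to the other sign. Raising the minimum to 30 CPM gave 21 members higher in GFP high over all cells (26 measurable), 0 lower at day 20 over all cells, 3 higher at day 20 in hair-cell-like cells, 22, 27 and 25 higher in hair-cell-like than in other cells at day 16, day 20 and in GFP low, and 25 lower in supporting-cell-like cells of GFP low. With no minimum, 10 were lower at day 20 over all cells and 6 higher in GFP high in hair-cell-like cells. At a fold of 1.5 these counts were 7 and 8, and 12 were higher at day 20 in hair-cell-like cells. The mean of per-cell CPM left 1 member lower at day 20 over all cells and turned the median log2 ratio to 0.10 in place of -0.32. A mitochondrial limit of 10% left 1 member higher in GFP high in hair-cell-like cells. Taking cells by a hair cell marker gate, which also takes Merkel-cell-like cells (409 of its 670 cells at day 16 and 698 of 867 at day 20), gave 25 and 22 members higher than in other cells at those days, and 0 at day 20 over day 16, where the median turned to -0.06 in place of 0.34. In alternatives chosen after seeing the data, counting the mixed cluster as hair-cell-like left 1 member higher in GFP high. Giving both libraries the same cluster proportions, by UMIs of GFP low or of day 16, left 1 in GFP high and 3 at day 20. Clusters absent from a library were left out of it, and its calls used the ratio without an interval. At resolution 0.5 no supporting-cell-like class was found and the comparison has no value. Leaving out either library of a comparison between libraries leaves no such comparison. Comparisons of cell classes within 1 library would remain, and a clustering without 1 of the libraries was not run. No paired analysis was possible because each group is 1 library. Hair-cell-like cells of day 20 number 149, at a median of 17151 UMIs, and Rsph10b and Rsph14 were called there on 31 and 27 UMIs.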
